A study of Homo sapiens with 74 samples.

Results

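ZMAT3 is one of 36 zinc finger proteins (ZFPs) with Cut&Run peak lists used here, made in HEK293T cells, a transformed human embryonic kidney line. In each of 2 biological replicates, 1 culture well was transfected with a plasmid that carried the ZMAT3 open reading frame with a C-terminal V5 tag under the EF1-alpha promoter, and chromatin was recovered 48 h later with a V5 antibody. The control for both replicates was V5 mock IP of un-transfected HEK293T cells, so the ZMAT3 cells differ from it by the plasmid and the transfection as well as by the protein. The tagged protein is made beside the cells' own ZMAT3, which carries no V5 tag. The members described here are all peaks of the 2 ZMAT3 lists, 1228 in replicate 1 and 545 in replicate 2, which is 1773 of the 92122 peaks in the 72 lists of the series, and above all the 171 regions found in both replicates outside the exons of ZMAT3 and EEF1A1.

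ZMAT3 is a zinc finger protein encoded by a direct target gene of the tumour suppressor p53, and it is known as an RNA-binding protein that acts on splicing and on transcript stability. In Cut&Run an antibody brings micrococcal nuclease to a protein in permeabilised nuclei, and the released fragments are sequenced, so a peak marks DNA near the protein whether the contact is direct or not. A peak's fold is the signal of the library over the mock IP at the peak's summit, with no unit.

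The tagged open reading frame was visible in the lists. The 3 coding exons of ZMAT3 that carried a peak had folds of 2341, 2208 and 1505 in replicate 1 and 1975, 1815 and 1312 in replicate 2, and none of the 35 other ZFPs had a peak on them. A region on EEF1A1, the gene whose promoter drives the plasmid, had folds of 4521 and 2964 and was in the lists of all 35 other ZFPs. These 4 regions were left out of everything that follows.

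The 2 lists differed in size and in kind. Of the 1537 regions that remained when all peaks were merged, 171 were found in both replicates, 1051 in replicate 1 alone and 315 in replicate 2 alone. Of the regions in replicate 1 alone, 814 (77.4%) lay within 1 kb of an annotated transcription start site (TSS), against 116 (36.8%) of those in replicate 2 alone and 58 (33.9%, exact 95% interval 26.9 to 41.5) of those in both. Regions that no other ZFP shared numbered 199 in replicate 1 alone, 128 in replicate 2 alone and 0 among the 171. Thus all 327 regions listed for ZMAT3 and for no other ZFP came from a single replicate. A count of 0 was also found in 7 of the 32 other ZFPs that had at least 20 regions in both replicates, and the highest share was that of CTCF, with 16.8%.

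The 171 regions fell into 9 classes. The largest was satellite-like sequence with 63 regions, defined by at least 5 copies of the pentamer ATTCC, on either strand, within 100 bp of the summit. Another 30 lay on sequence that matches the ribosomal DNA (rDNA) unit, and 7 on mitochondrial DNA or its nuclear copies. Protein-coding promoters, within 1 kb of a TSS, made up 29 regions. A further 9 lay on small RNA genes or a copy of one, 3 at other TSSs, 6 at 1 to 10 kb from a TSS and 16 at over 10 kb, and 8 on contigs outside the assembled chromosomes. Folds in the 2 replicates ran in the same order, with a Spearman coefficient of 0.90 over the 171 regions, which share 2 libraries and a control and are not independent. Replicate 1 had the higher fold in 72 of the 171 regions.

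**Figure D1:**
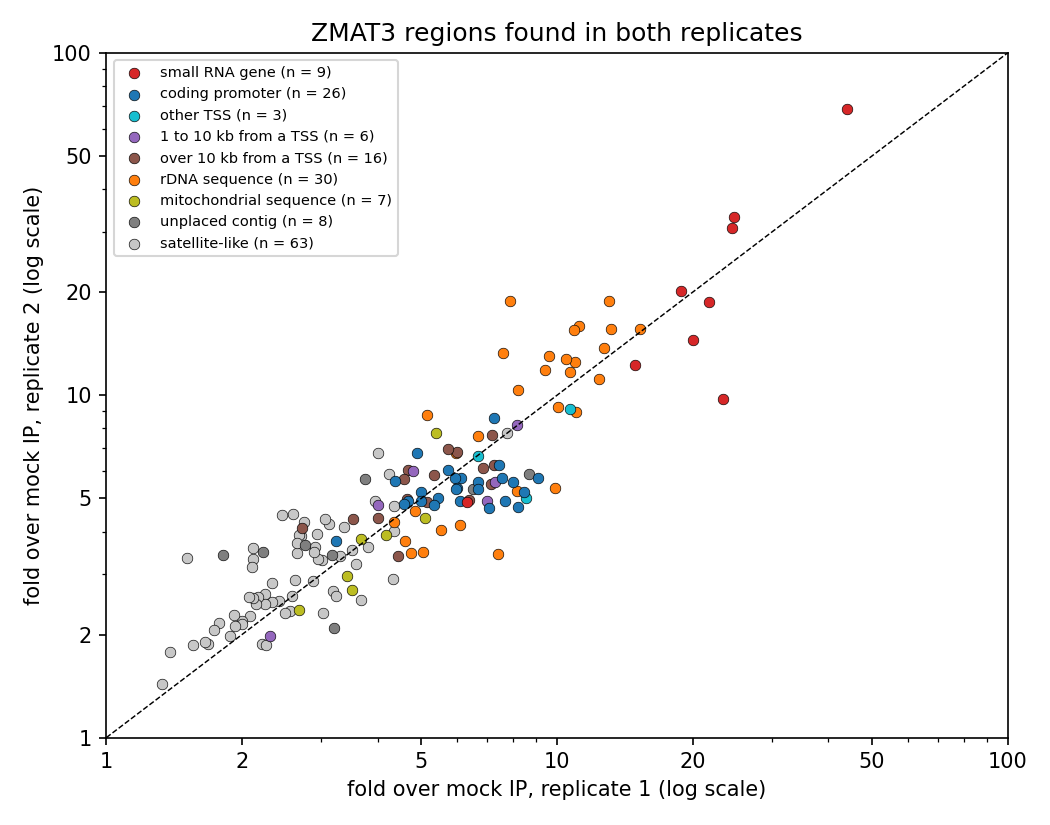
Fold over mock IP in replicate 1 (x axis) and replicate 2 (y axis), both on log scales, for 168 regions found in both ZMAT3 replicates. Each point is a region coloured by class, and the dashed line marks equal folds. The small RNA genes reach the highest folds, up to 68.8, and the satellite-like regions lie at the lower end.

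The highest folds were on genes of small structured RNAs. The strongest region, RNU1-27P (chr14:34546712-34546897, hg38, plus strand), had folds of 44.03 and 68.8. Its annotated 164 bases are the U1 small nuclear RNA sequence, the RNA that pairs with 5′ splice sites, and they are identical to those of RNU1-3 with 0 differences over 164 positions. RNU1-3 (chr1:16666785-16667097, minus strand) had folds of 24.7 and 33.1. A copy of U1 on an unlocalised chromosome 1 contig, which GENCODE does not annotate, had folds of 24.5 and 30.9. The 51 bases around the summit of each occur at 12 places in hg38, so reads from these copies cannot be told apart and the 3 regions are not independent. Sequences are shown for 3 of these loci. The region spans the annotated gene at RNU1-27P and RMRP and lies inside it at SNORD3A. Capitals mark bases inside the annotated gene and lower case the bases of the region outside it, in each case 5′ to 3′ along the gene. RMRP and SNORD3A are described next.
RNU1-27P: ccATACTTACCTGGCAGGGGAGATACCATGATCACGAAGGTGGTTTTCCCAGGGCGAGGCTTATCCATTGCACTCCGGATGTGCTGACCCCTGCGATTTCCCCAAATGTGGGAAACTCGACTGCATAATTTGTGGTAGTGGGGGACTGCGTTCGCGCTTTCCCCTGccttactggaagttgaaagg
RMRP: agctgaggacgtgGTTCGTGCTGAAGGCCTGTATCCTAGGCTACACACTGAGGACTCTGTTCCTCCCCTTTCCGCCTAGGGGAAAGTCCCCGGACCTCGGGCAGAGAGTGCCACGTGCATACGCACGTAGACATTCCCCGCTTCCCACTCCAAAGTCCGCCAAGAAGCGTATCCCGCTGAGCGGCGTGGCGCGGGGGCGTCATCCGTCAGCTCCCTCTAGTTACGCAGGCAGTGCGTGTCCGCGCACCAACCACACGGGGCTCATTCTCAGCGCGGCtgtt
SNORD3A: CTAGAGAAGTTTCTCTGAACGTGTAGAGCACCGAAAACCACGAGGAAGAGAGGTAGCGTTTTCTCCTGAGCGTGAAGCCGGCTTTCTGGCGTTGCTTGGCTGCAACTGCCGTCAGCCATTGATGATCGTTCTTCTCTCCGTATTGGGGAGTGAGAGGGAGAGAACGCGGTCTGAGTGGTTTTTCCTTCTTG

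RN7SL1 (chr14:49586578-49586889) and RN7SL2 (chr14:49862550-49862869) encode the RNA of the signal recognition particle. RN7SL1 had folds of 21.7 and 18.7 and RN7SL2 of 18.9 and 20.2, so the replicates of each were close. RMRP (chr9:35657750-35658030), the RNA of the RNase MRP complex that processes ribosomal RNA, had folds of 20.01 and 14.5. SNORD3A (chr17:19188054-19188244) encodes U3, a small nucleolar RNA of early ribosomal RNA processing, and had folds of 14.9 and 12.3. RN7SK (chr6:52995649-52995970), whose RNA holds the elongation factor P-TEFb inactive, differed most, with 23.3 in replicate 1 and 9.73 in replicate 2. A U2 gene of the tandem array (chr17:43284143-43284515), which codes for the RNA that pairs with the intron branch point, was the weakest at 6.31 and 4.88. The 51 bases around the summit occur at 13 places in hg38 for U2, 4 for SNORD3A, 3 for RN7SK and 2 for RN7SL1. Folds at these 4 genes may therefore include reads from other copies.

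The summit lay inside the annotated gene in 16 of 16 ZMAT3 peaks on these 8 annotated genes. The median peak covered 99.0% of the gene. The RNU1-27P peaks ran from base -2 to base 184 of the gene in replicate 1 and from base 1 to base 182 in replicate 2, where base 1 is the first transcribed base. The RN7SL1 peaks ran from base -2 to 310 and from -1 to 308 of a gene of 299 bases. SNORD3A was the exception, with peaks over bases 39 to 229 and 45 to 210 of an annotated 699. Peaks of the other ZFPs on the same genes showed the same placement, with 207 of 212 summits (97.6%) inside. No ZMAT3 peak on these 8 genes lay upstream of the gene alone. RNA was not measured in these libraries, and the part of RNA or of DNA from other copies in these peaks was not tested.

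**Figure D2:**
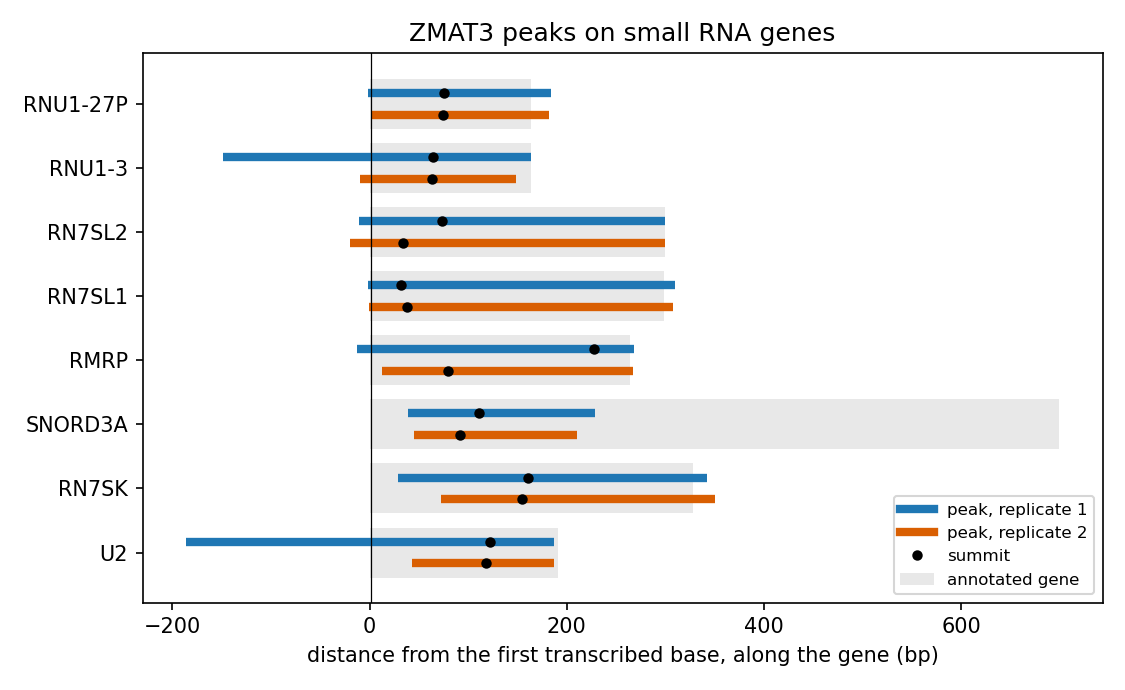
Extent of the ZMAT3 peak in each replicate on 8 annotated small RNA genes, in bp along the gene from the first transcribed base. Grey bars are the annotated genes, coloured bars the peaks and black points the summits, all of which fall inside the gene.

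Not all small RNA classes carried a region. Over the annotation, 13 of 5113 small RNA genes (0.254%) had a region within 1 kb of their TSS in both replicates and 43 (0.841%) in at least 1, with 0.724% in replicate 1 and 0.372% in replicate 2. Among U1 genes and pseudogenes 2 of 146 were called in both replicates and 6 in at least 1. Of the U2 entries 1 of 90 was called in both and 8 in at least 1, mostly neighbours in the tandem array in replicate 1. No region in either replicate lay at any of 90 U4, 31 U5, 1310 U6 or 149 U7 entries, at RNY genes (0 of 3) or at vault RNA genes (0 of 6). At a share of 0.841%, a count of 0 says little for the shorter of these lists. Entries were counted by name, without telling genes from pseudogenes. RPPH1, the RNA of RNase P, and SNORD118, the U8 small nucleolar RNA, were called in replicate 1 alone, and RN7SL3 in replicate 2 alone. By annotation 12 of the 171 regions (7.02%, exact 95% interval 3.68 to 11.9) overlapped a small RNA gene. These were the 8 genes above and 4 unnamed RNA genes inside rDNA sequence.

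Other ZFPs reached similar folds on the same genes. CISD1, an iron-sulfur protein of the outer mitochondrial membrane by its known role, had a peak on all 9 regions. So did APEX2, CPSF4, G2E3, GIN1, MBNL1, SNRPC and WBP4. On the lower fold of 2 replicates, ZMAT3 ranked first on RNU1-3, at 24.7 against 18.7 for CISD1, and first on the U1 copy, at 24.5 against 20.3. On RNU1-27P it was passed by 2 others, at 44.03 against WBP4 with 47.2 and CISD1 with 44.4. On RN7SK its rank was 10 of 18 ZFPs, at 9.73 against 49.6 for CISD1. These values come from lists called against mock IPs that may be of different batches, and their differences were not tested.

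The promoter regions had lower folds and narrower sharing. Of 20033 protein-coding genes, 34 (0.17%) had a ZMAT3 region within 1 kb of a TSS in both replicates and 1049 (5.24%) in at least 1 replicate. By replicate the shares were 4.67% in replicate 1 and 0.759% in replicate 2. The 26 promoter regions described here had lower folds of 3.23 to 7.26, with a median of 5.12. Their median width was 439 bp and they were found in a median of 10 other ZFPs, from 5 to 31.

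The strongest was at C14orf93 (chr14:23009940-23010429), with folds of 7.26 and 8.56 and peaks in 16 other ZFPs. A second region of C14orf93, about an alternative start (chr14:23006838-23007345), had folds of 8.01 and 5.60. TOMM40 (chr19:44890609-44891276), which encodes the import pore of the mitochondrial outer membrane, had folds of 7.43 and 6.24. VPS35 (chr16:46689197-46689597), a subunit of the retromer sorting complex, had folds of 9.06 and 5.74, with the summit at the same base in both replicates. ALKBH5 (chr17:18183457-18183839), an RNA demethylase of N6-methyladenosine, had folds of 8.45 and 5.23 and was named after its values were seen.

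At 3 of the 26 promoters ZMAT3 was the sole ZFP with a peak in both of its replicates. ROCK2 (chr2:11344753-11345249), a protein kinase, had folds of 6.13 and 5.74. Other lists held it in 1 replicate for CISD1, CPSF4, G2E3, PHF7 and TEX13A. MTG1 (chr10:133394059-133394502), a mitochondrial GTPase of ribosome assembly, had folds of 7.55 and 5.74, with 1 replicate each of 8 other ZFPs. GPBP1L1 (chr1:45686815-45687156) had folds of 5.96 and 5.33, with 1 replicate each of 5 others. In all, 4 of the 171 regions were in both replicates of no other ZFP, which adds a region on chromosome 1 (chr1:122801809-122802125) at folds of 4.66 and 4.98 whose summit sequence occurs 165 times in hg38.

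BAG5 (chr14:103562220-103562904), a co-chaperone of HSP70, had folds of 5.94 and 5.73. ATP6V0E2 (chr7:149873694-149874372), a subunit of the vacuolar proton pump, had folds of 5.72 and 6.06. LAMTOR2 (chr1:156054805-156055061), a subunit of the Ragulator complex on lysosomes, had folds of 6.67 and 5.33. At these 3 promoters the ZMAT3 lower fold was above that of any other ZFP found in both replicates, the nearest being APEX2 with 4.59, 4.30 and 4.95. At ATP6V0E2 and LAMTOR2, APEX2 was the only such ZFP. The regions were chosen by their ZMAT3 calls, and these differences were not tested. TCAIM (chr3:44338464-44338750) had folds of 6.67 and 5.60, below APEX2 with 9.05. ADAP1 (chr7:905769-906231), a GTPase-activating protein for ARF6, was widely shared, with folds of 6.003 and 5.37 and peaks in 31 other ZFPs. The ZMAT3 lower fold was passed most clearly at POLR1B and CARM1, chosen after their values were seen, where ZNF22 had 14.6 against 4.72 and CTCF 14.3 against 4.67.

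**Figure D3:**
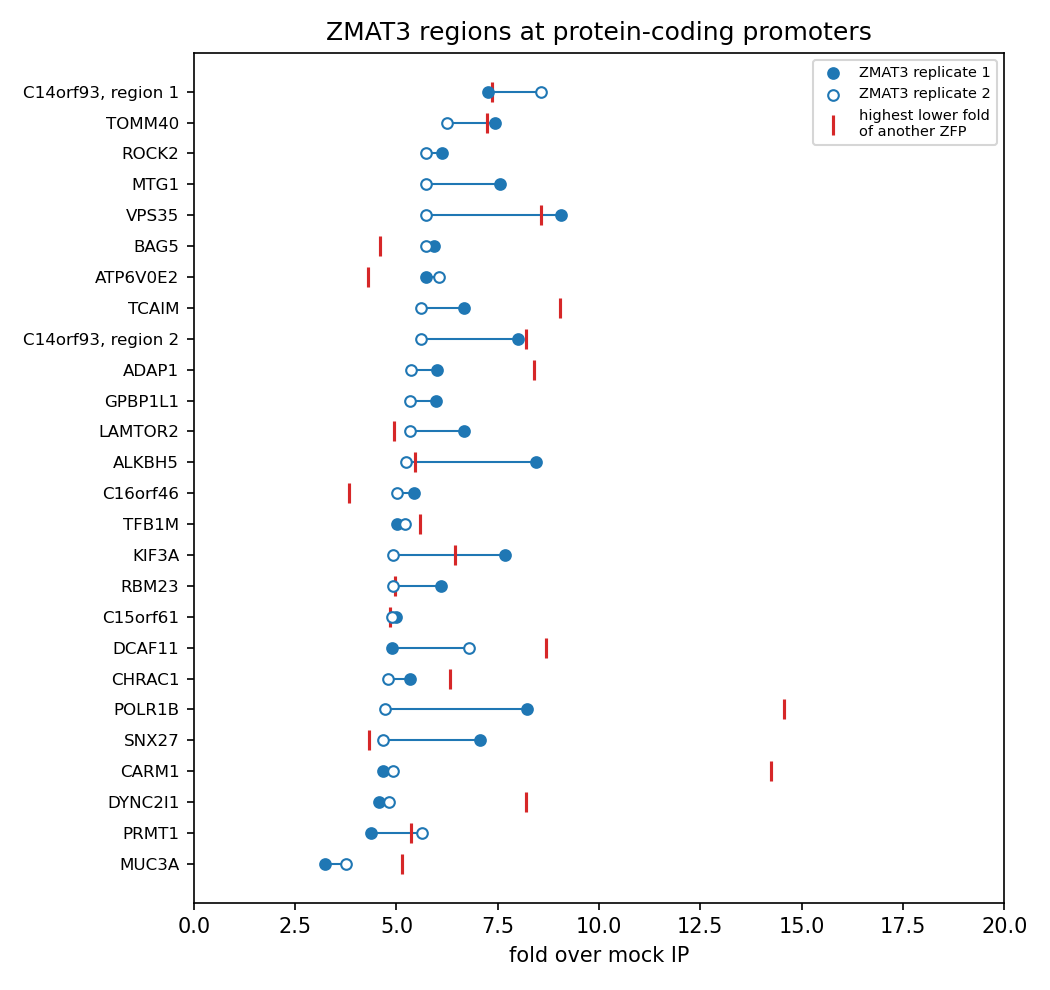
Fold over mock IP at 26 protein-coding promoter regions found in both ZMAT3 replicates, ordered by the lower fold of the 2. Filled and open circles are replicates 1 and 2 of ZMAT3, and the red bar is the other ZFP whose lower fold of its 2 replicates is highest, absent at ROCK2, MTG1 and GPBP1L1, where no other ZFP had a peak in both.

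The promoter summits lay in GC-rich DNA. In 300-base windows centred between the 2 summits, GC content had a median of 68.7% and ran from 45.3% to 78.7%. RefSeq promoters of the same length (35116 genes, 250 bases before to 50 after the start, GRCh38.p14) had a median of 58.7%. The GC box, GGGCGG on either strand, occurred in 20 of 26 windows (76.9%) and in 45.0% of RefSeq promoters. The letters TGCGCA, which stand inside the NRF1 site, occurred in 7 windows (26.9%), TCAIM and ATP6V0E2 among them, and in 8.24% of promoters. The CCAAT box, with the letters CCAAT, was in 9 windows (34.6%) and in 34.6% of promoters. No window held TATAAA, which 11.5% of promoters hold, TGACGTCA (1.85%) or a p53 site (0.0285%). For TGACGTCA and the p53 site, a count of 0 in 26 windows says little at shares this low. These shares describe letters in windows that differ in GC content and in how they were placed. The 101 bases around the mean summit are given on the plus strand for 5 promoters, with each GC box and CCAAT box, on either strand, in capitals. RBM23 and CARM1 were chosen to show repeated motifs, after their values were seen (folds 6.11 and 4.92, and 4.67 and 4.92).
C14orf93 (chr14:23010204-23010304): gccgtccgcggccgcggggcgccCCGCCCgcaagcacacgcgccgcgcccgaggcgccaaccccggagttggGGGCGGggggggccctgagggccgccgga
TOMM40 (chr19:44890882-44890982): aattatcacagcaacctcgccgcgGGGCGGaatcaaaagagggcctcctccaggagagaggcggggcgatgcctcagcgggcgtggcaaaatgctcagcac
VPS35 (chr16:46689302-46689402): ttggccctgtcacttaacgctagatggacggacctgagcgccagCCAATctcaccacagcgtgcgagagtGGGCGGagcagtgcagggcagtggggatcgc
RBM23 (chr14:22919231-22919331): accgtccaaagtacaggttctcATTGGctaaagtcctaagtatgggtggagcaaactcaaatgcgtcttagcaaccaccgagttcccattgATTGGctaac
CARM1 (chr19:10870947-10871047): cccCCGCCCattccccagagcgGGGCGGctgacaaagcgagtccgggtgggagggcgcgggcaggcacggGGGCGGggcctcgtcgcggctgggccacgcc

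Genes of 6 lists were then read against the shares over all protein-coding genes. None of 30 genes of p53 and its targets had a region within 1 kb in both replicates, where 0.17% of all coding genes had one. In at least 1 replicate, 5 of the 30 had one (16.7%, against 5.24% of all coding genes). All 5 were in replicate 1. The phosphatase gene PPM1D had a fold of 7.72, GADD45A of 7.13, the kinase gene PLK3 of 6.17, TP53INP1 of 5.44 and TP53I3 of 4.67. All 5 places were also in at least 1 other ZFP's list, in up to 9 for PLK3. A region 15308 bp from the GADD45A start (chr1:67700984-67701202) was found in both replicates, at folds of 5.15 and 4.87. It is shown for this position, it held none of the motifs searched in its central 101 bases, and it was in 5 other ZFPs, ZNF22 and CISD1 in both replicates.
GADD45A distal (chr1:67701115-67701215): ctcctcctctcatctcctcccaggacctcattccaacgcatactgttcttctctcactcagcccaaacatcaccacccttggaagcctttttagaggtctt

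For the other 5 lists the same shares over all coding genes apply, 0.17% in both replicates and 5.24% in at least 1. Splicing factor and hnRNP genes had 0 of 45 in both replicates and 11 (24.4%) in at least 1, with HNRNPUL2 and its read-through gene counted for 1 region. At a share of 0.17%, a count of 0 in a list this short says little. Examples in replicate 1 were SRSF4 with a fold of 7.09 and SRSF2 with 5.42, both serine-arginine splicing factors, and TRA2A with 5.11, which no other ZFP shared. Heat shock chaperones had 2 of 14 (14.3%) in at least 1 replicate, HSPD1 and HSPE1, which share 1 promoter region of fold 6.50. Of 15 immediate early genes only EGR1 had a region, with a fold of 5.504 in replicate 1. Replication-dependent histone genes had 9 of 69 (13.04%) in at least 1 replicate, among them H2AC19 with 4.64 and 6.69 at places that did not overlap. Several of the 9 had identical folds on the same chromosome, such as H2AC17, H2BC17 and H3C12 at 5.84. The 9 are therefore not 9 separate calls, since 1 peak can count for several genes. Ribosomal protein genes had 4 of 86 (4.65%), and the 1 called in both was RPS29, whose start lies 198 bp from the RN7SL1 region. Because 935 of the 1049 coding genes were called in replicate 1, these counts rest mainly on that library.

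Among the 3 regions at TSSs of other genes, the long non-coding RNA gene MALAT1 had the highest folds, 10.7 and 9.11 (chr11:65500408-65500857), with the replicate 1 summit in an exon and with 9 other ZFPs. CISD1 had the higher lower fold there, 12.7. Among regions over 10 kb from every TSS, leaving out those on rDNA and satellite-like sequence, the highest lower fold lay in an intron of TMEM242 (chr6:157311239-157312142), with folds of 7.19 and 7.63 and 28 other ZFPs. An intron of DHRSX (chrX:2464065-2465290) had 7.24 and 6.26, with 20 others, and an intron of GALNT9 (chr12:132242498-132243115) had 7.14 and 5.52, with 21 others. The GALNT9 summit sequence occurs at 21 places in hg38. A group of 4 regions on chromosome 17, near its centromere, had lower folds from 5.34 to 6.13. They were not satellite-like by the ATTCC rule and so stayed in this class. Their summit sequences occur at 4, 1091, 116 and 197 places in hg38, from the highest lower fold down, so reads from these copies cannot be told apart. Another region there (chr17:24188135-24188806), which is not among the 10 highest distal ones, had folds of 4.43 and 3.39, with 31 others. An intron shared by DANT1 and DANT2 (chrX:115888183-115888525) had 4.67 and 6.05, with 22 others. The end of chromosome 5 (chr5:10185-11716), which held 253 units of the telomere repeat, had folds of 6.38 and 4.94 and was in 33 other lists.

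A coding exon of APEX2 (chrX:55006594-55007087), 6201 bp from the gene's start, had ZMAT3 folds of 6.99 and 4.92. APEX2 is itself one of the tagged ZFPs, with folds of 6429 and 2811 on the same exon in its own lists. Besides APEX2, GIN1, MBNL1 and WBP4 had a peak there. A BRCA1 exon had a fold of 4.13 in ZMAT3 replicate 2 alone, and a ZNF593 exon that also holds its TSS had 4.79 in replicate 1 alone, and both genes are likewise tagged in this series. Whether these peaks come from DNA of the other plasmids was not tested.

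The classes differed in their median sharing with the other ZFPs, and their ranges overlapped. The 63 satellite-like regions were in a median of 32 other ZFPs with a median lower fold of 2.45. The 30 rDNA regions were in a median of 28 with a median lower fold of 8.02, and the small RNA regions in 16 with 18.7. Of the 171 regions, 8 were in all 35 other ZFPs, and the 5 of these with the highest folds were satellite-like, on chromosomes 1, 4, 5 (2 regions) and 17, with lower folds of 2.00 to 3.05. At the other end 9 regions were in 5 or fewer others. They include the promoters of ROCK2, GPBP1L1, LAMTOR2 and RBM23, the APEX2 exon and the distal region near GADD45A.

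**Figure D4:**
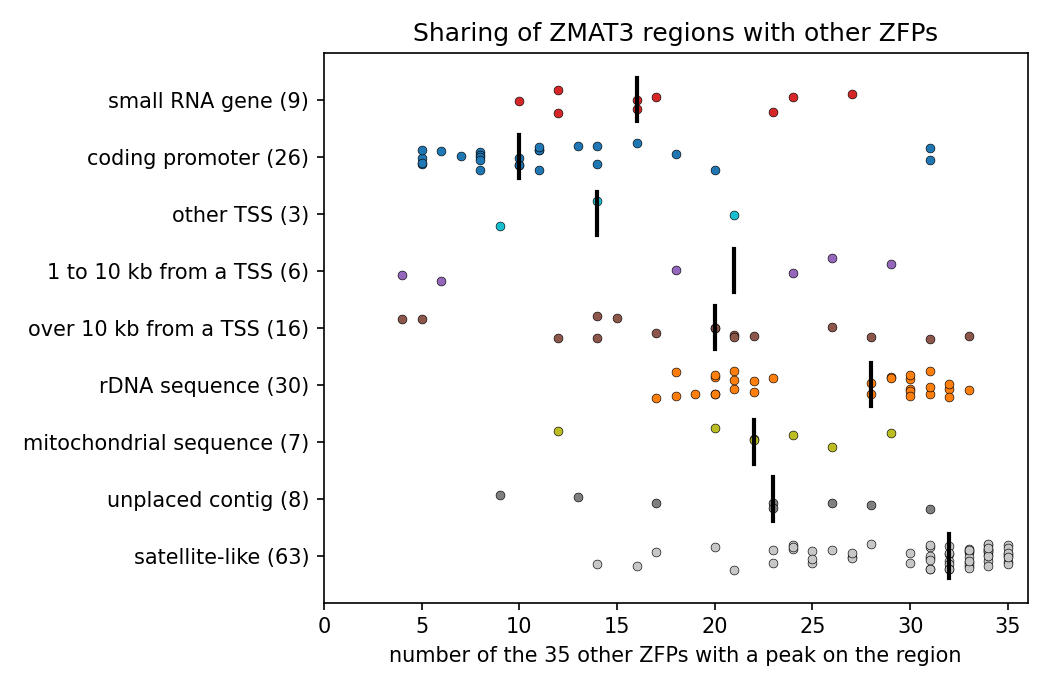
Number of the 35 other ZFPs with a peak on each ZMAT3 region (x axis), by class of region, for 168 regions. Points are regions, spread vertically for display, and black bars are class medians, which run from 10 for coding promoters to 32 for satellite-like regions.

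The counts of shared regions are given by class for some of the other ZFPs. APEX2, an apurinic endonuclease, had peaks on 161 of the 171 regions (94.2%) and on 28 of the 29 promoter regions (96.6%), and these took 3.31% of its 9910 peaks. CISD1 shared 162 regions (94.7%, 2.61% of its 11335 peaks). CTCF, the insulator protein, shared 76 (44.4%), with 14 of 29 promoters but 14 of 63 satellite-like regions. U2AF1, the splicing factor that reads the 3′ splice site, shared 115 regions (67.3%, 29.2% of its 920 peaks), with all 63 satellite-like regions, 6 promoters and 0 of the 9 small RNA regions. WBP4, a splicing protein with 961 peaks, shared all 9 small RNA regions and 131 in all (76.6%, 32.99% of its peaks). Longer lists share more by their length alone, and no test of the overlaps was made.

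ZMAT3 was last set against the 32 other ZFPs with at least 20 regions in both replicates. Each of the 33 ZFPs was put in the place of ZMAT3 in turn, in a two-sided exact permutation test whose smallest possible p is 0.0303, and p-values were adjusted over the 5 measures. A single measure at the extreme could not pass after that adjustment, so the p-values are given as descriptions of rank. The share of regions on small RNA genes was 7.02% for ZMAT3 and 2.44 ± 2.84% (SD, n = 32) for the others, with ZMAT3 at rank 4 of 33 (exact p = 0.121, adjusted 0.606). The share within 1 kb of a TSS was 33.9% against 27.9 ± 26.8% (exact p = 0.848, adjusted 0.909). The satellite-like share was 36.8% against 41.4 ± 25.5% (exact p = 0.909, adjusted 0.909). A ZMAT3 region was in a median of 24 other ZFPs, against 18.3 ± 7.55 (exact p = 0.576, adjusted 0.909). The direction of this difference turned on the single lists, where ZMAT3 minus the others was -4.56 in replicate 1 and -0.235 in replicate 2, and with a replicate block it was -2.29. The share of the shorter list that was found again in the other replicate was 41.7% against 49.6 ± 15.3% (exact p = 0.606, adjusted 0.909).

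**Figure D5:**
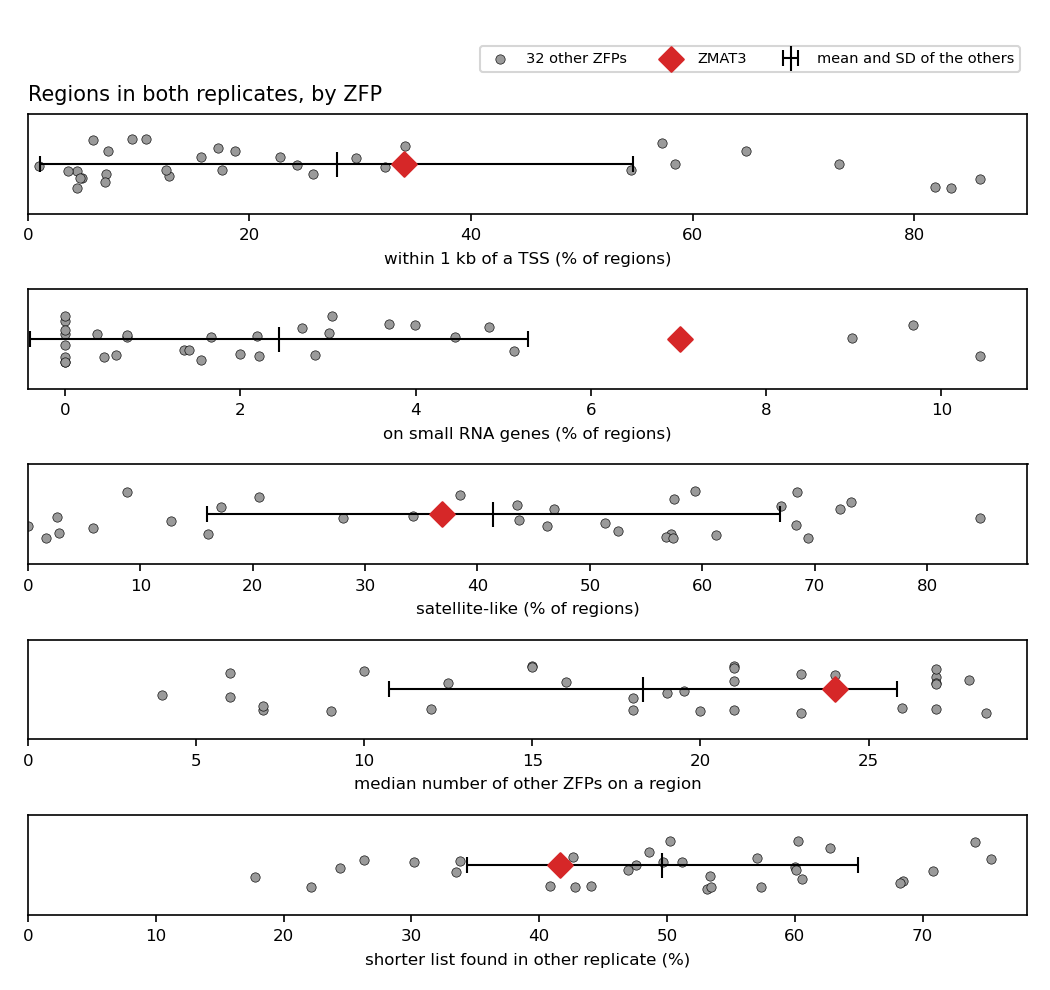
The 5 measures for the 33 ZFPs with at least 20 regions in both replicates, one measure per row with its unit on the x axis. The red diamond is ZMAT3, grey points are the 32 other ZFPs, spread vertically for display, and the bar gives their mean and SD. ZMAT3 lies outside 1 SD of the others only for the share on small RNA genes, 7.02% against 2.44%.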

How the data were processed

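Cut&Run peak lists of 36 ZFPs with 2 replicates each were used, with no filter on quality control. The paper's summary gives no Cut&Run target count for CPSF4, MBNL1, SNRPC, TRIM55, ZC3H3 and ZMAT5. Their lists are counted among the other ZFPs here. Of these, TRIM55, ZC3H3 and ZMAT5 had too few regions in both replicates to enter the permutation test. Samples were mapped to ZFP and replicate by their labels. Per the labels, the authors trimmed reads with Trimmomatic 0.36, aligned them to hg38 with Bowtie2 2.3.5.1, keeping fragments of 10 to 700 bp, removed duplicates with Picard and called peaks in each library against V5 mock IP with MACS2 2.2.7.1, at a false discovery rate of 0.05. The deposited fold is a linear ratio over the control at the summit, and the deposited −log10 p and −log10 q values are those of the peak caller. No read counts were used, so the read depth of each library is unknown here. The number of peaks (15 to 8702 per list, median 631) is not a measure of it. Exact intervals cover counting error only.

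Peaks overlapping by at least 1 bp in both replicates were joined into regions. TSSs and genes were taken from GENCODE 44, and a region within 500 bp of a small RNA gene counted as on it. Regions on exons of ZMAT3 and on EEF1A1 were left out. rDNA, mitochondrial and unannotated small RNA copies were found by BLAST 2.17.0 with at least 90% identity. Matches to rDNA or mitochondrial DNA had to cover at least 80% of the region. A match to a small RNA gene had to span at least 80% of that gene. Classes exclude each other. Python 3.11.15 with scipy 1.17.1, pandas 2.3.3 and pysam 0.24.0 was used. Overlap and TSS steps returned the known answer for 1000 of 1000 simulated cases each.

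Regions to name were ordered by their lower fold over both replicates: the 15 highest at coding promoters, those on small RNA genes, the 10 highest distal ones, the 5 most shared and members of the gene lists. The members, lists and rule were chosen with earlier results of these data known. The regions on 1 gene are counted but not reported here. The replicates are separate wells, so p-values measure only the spread between ZFPs. Alternatives were other overlap rules, q thresholds, TSS distances, satellite rules, sharing rules, single replicates and sets of ZFPs.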

Additional observations from a re-analysis of the deposited data

How the results depend on the processing

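The 171 regions became 113 where the overlap had to cover the larger part of each peak and 108 without satellite-like regions. The share within 1 kb of a TSS was 19.9% with protein-coding genes only and 53.7% without satellite-like regions. The median number of other ZFPs on a region was 20 without satellite-like regions and 16 where both replicates of the other ZFP had to hold it. The strictest q threshold left 126 regions. The q thresholds, other TSS distances and other satellite rules moved the shares by less than their intervals. With a single list, the share within 1 kb of a TSS was 35.4% in replicate 2 and 71.2% in replicate 1, the share on small RNA genes 2.53% to 3.33%, the satellite-like share 6.29% to 20.9% and the median number of other ZFPs 5 to 9.5. ZMAT3 minus the mean of the others ran over the single lists from 7.21 to 34.8 percentage points for TSSs, 0.113 to 2.12 for small RNA genes and -21.4 to -7.70 for satellites, and the median number of ZFPs turned from 5.70 to between -4.56 and -0.235. With the single lists fitted with a replicate block, these were 20.1, 1.01, -14.6 and -2.29 (exact p = 0.606, 0.485, 0.636 and 0.758). The cause of these shifts was not tested. List length limits all shares, and 2 replicates allow no test on a single region.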

Other observations

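Of the 171 regions, 7 lay on mitochondrial DNA or its nuclear copies. The strongest, at the MIR4485 copy on chromosome 11 (chr11:10509245-10509733), had folds of 5.39 and 7.78 and was in 26 other ZFPs. The mitochondrial genome itself carried 2 broad regions of 9969 and 6357 bp at folds of 3.43 and 2.96, and of 3.51 and 2.71. Telomere repeat units were also found in regions at the start of chromosome 18 (36 units, folds of 8.54 and 5.02, 21 other ZFPs) and at the end of chromosome 22 (42 units, folds of 4.004 and 4.79, 24 other ZFPs).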
